A study of Oryza sativa with 24 samples.

Results

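The response of 35Spro:OsMIR393b rice to 2 d of culture with auxin was measured by RNA-seq in 6 of the 24 libraries of the series. These 6 were chosen by their labels alone: 3 libraries of the line on callus-inducing medium (CIM), which contains the synthetic auxin 2,4-D, and 3 libraries of the line on N6 medium without hormone, both after 2 d. All groups are in the Nipponbare background, and the 6 libraries of wild-type (WT) at 2 d, on the same 2 media, were set beside the line. In 35Spro:OsMIR393b the constitutive 35S promoter overexpresses the microRNA gene OsMIR393b in the whole plant, and whether 1 or several transformants were sampled is not given in the sources used here. Scutella of several seeds were pooled for each sample according to the methods, while the sample labels name mature embryos. The libraries of a group are described as biological replicates. The p-values set a change against the spread between libraries of a group, estimated from all 24 libraries.

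The scutellum, a shield-shaped organ of the grass embryo, borders the endosperm and produces callus on auxin. Auxin is perceived by F-box proteins of the TIR1/AFB family, which with auxin bound mark Aux/IAA repressors for degradation and so free the auxin response factors (ARFs) to activate genes. Among the classical targets are the Aux/IAA genes themselves, GH3 genes, whose enzymes conjugate auxin to amino acids, SAUR genes of cell elongation, and LBD transcription factor genes of root and callus initiation. miR393 cuts the transcripts of the receptors, so the line enters the culture with less receptor RNA. The comparison of CIM with N6 within the line addresses which auxin responses could still be seen.

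The total of estimated counts was 62487300 to 69957571 per library on N6 and 62760557 to 67994361 on CIM. Correlations between log2 CPM (counts relative to the total of the library) of replicates of the line were 0.959 to 0.965, against 0.937 to 0.951 between CIM and N6 libraries. OsTIR1 (Os05g0150500) measured 27.5, 24.2 and 26.2 CPM on N6 and 20.4, 21.4 and 21.1 CPM on CIM. In WT it measured 110 ± 6.22 CPM (SD, n = 3) on N6, so that its level in the line was lower by 2.09 on the log2 scale (log2 difference -2.09, edgeR adjusted p = 7.3e-10). OsAFB2 (Os04g0395600) measured 82.3 ± 7.24 CPM on N6 in the line and 142 ± 10.3 CPM in WT (log2 difference -0.78, adjusted p = 1e-04), which matched the labels of the line. Both receptor transcripts were a little lower on CIM than on N6 in the line (log2 changes -0.31, adjusted p = 0.14, and -0.43, adjusted p = 0.02), and neither passed the call rule. A gene was called when edgeR gave it an adjusted p below 0.05, over 29710 genes tested, and a log2 change of more than 1 in either direction.

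After 2 d on CIM, 361 genes were higher (1.22% of those tested) and 110 were lower (0.37%) than on N6 in the line, together 1.59%. With limma on log2(FPKM + 0.1) the split was 399 to 252. The higher genes were mostly weakly expressed without hormone: their median level was 1.41 CPM on N6 and 8.12 CPM on CIM, 159 of them were under 1 CPM on N6, and 34 were at 0 in all 3 N6 libraries. Their median log2 change was 2.28, with 157 genes between 1 and 2 and 61 genes above 5. The lower genes had a median level of 8.17 CPM on N6 and 2.84 CPM on CIM, and 79 of the 110 changed by between 1 and 2 on the log2 scale. The CIM and N6 libraries did not overlap for 470 of the 471 called genes, against 26.0% of all genes tested. The genes were called on these same libraries, so this separation follows from their choice and is no support for the calls. Leaving out 1 library moved both counts. Without CIM replicate 1 there were 217 higher and 32 lower genes, without N6 replicates 1, 2 and 3 there were 239, 232 and 225 higher and 65, 59 and 44 lower genes, and without CIM replicates 2 and 3 there were 72 and 73 lower genes.

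The Aux/IAA genes, which encode the repressors of auxin signalling, formed the list with the largest share of members that rose. Of 30 members tested 15 rose, 0 fell and 15 did not pass the test, with a median log2 change of 1.44 over the 30 against 0.00 over all genes. OsIAA9 (Os02g0805100, chr2:34348582-34349843 of IRGSP-1.0) measured 0.879, 1.03 and 0.244 CPM on N6 and 49.7, 42.9 and 40.9 CPM on CIM, a log2 change of 5.94 (SE 0.46, adjusted p = 2.3e-07). It was nearly silent in every N6 library and the groups were far apart. OsIAA10 (Os02g0817600) measured 4.94, 6.16 and 4.5 CPM on N6 and 29, 22.9 and 28.6 CPM on CIM (log2 change 2.37, adjusted p = 9.5e-09). OsIAA24 (Os07g0182400) measured 10.4, 8.92 and 14.2 CPM on N6 and 71.1, 69.9 and 71.1 CPM on CIM (log2 change 2.67, adjusted p = 5.2e-07). In the CIM group its libraries differed by less than their spread on N6. IAA11 (Os03g0633500), a repressor that acts in lateral root initiation, measured 0.927, 0.894 and 1.06 CPM on N6 and 8.96, 8.24 and 10.1 CPM on CIM (log2 change 3.25, adjusted p = 6.2e-05). OsIAA4 (Os01g0286900), a weakly expressed member, measured 0.879, 0.5 and 1.17 CPM on N6 and 3.96, 3.49 and 3.68 CPM on CIM (log2 change 2.13, adjusted p = 7.1e-05). The more abundant OsIAA1 and OsIAA15 moved less: OsIAA1 (Os01g0178500) went from 38.2 ± 2.04 to 107 ± 2.02 CPM (log2 change 1.48) and OsIAA15 (Os05g0178600) from 37.5 ± 0.981 to 88.3 ± 4.08 CPM (log2 change 1.24). The 15 members that were not called had log2 changes of -1.10 to 5.12. OsIAA5 (Os01g0675700) was one of them at 20.8 ± 1.61 CPM on N6 and 25.1 ± 1.26 CPM on CIM (adjusted p = 0.25). OsIAA26 (Os09g0527700) was listed at 0, 0 and 0.065 CPM on N6 and at 1.24, 0.555 and 0.594 CPM on CIM, which did not pass the test (adjusted p = 0.13). Over all settings tried the Aux/IAA members called higher were 13 to 17.

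**Figure D1:**
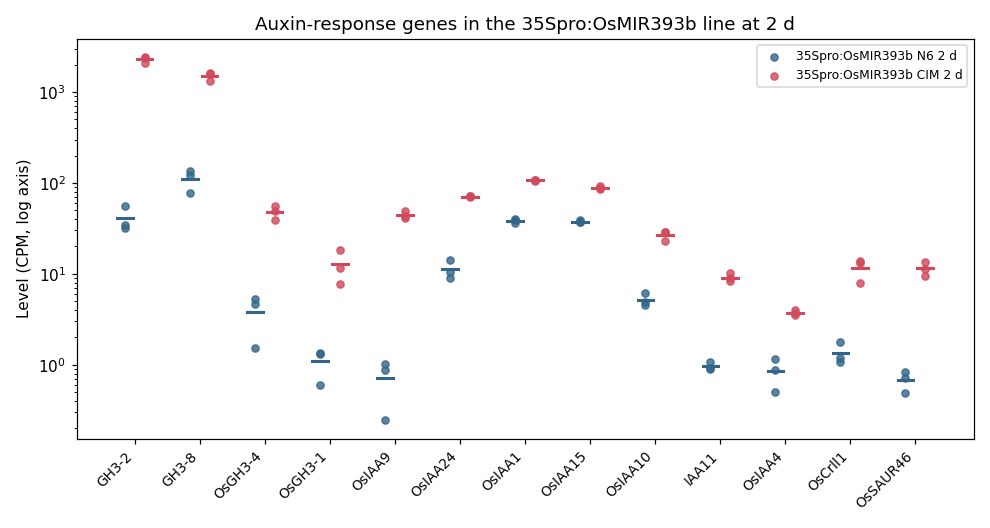
Level of 13 auxin-related genes in each library of 35Spro:OsMIR393b on N6 and on CIM at 2 d, in CPM on a log axis. Each library has 1 point, and a bar marks the group mean. OsCrll1 is the symbol in the deposited table for Os03g0149000, which the study names OsCRL1. GH3-2 stood between 32.3 and 55.8 CPM on N6 and between 2084 and 2425 CPM on CIM, and OsIAA24 between 8.92 and 14.2 CPM and between 69.9 and 71.1 CPM.

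GH3 genes, whose enzymes inactivate or store auxin as amino acid conjugates, held the most abundant of the auxin genes named here on CIM. Of 9 members tested 4 rose and 0 fell. GH3-2 (Os01g0764800, chr1:32221378-32225121) measured 32.3, 55.8 and 34.4 CPM on N6 and 2395, 2425 and 2084 CPM on CIM, a log2 change of 5.82 (SE 0.27, adjusted p = 2.4e-10). GH3-8 (Os07g0592600) measured 122, 135 and 76.5 CPM on N6 and 1566, 1617 and 1326 CPM on CIM (log2 change 3.75, SE 0.31, adjusted p = 5.2e-07). Every CIM library of these 2 indole-3-acetic acid-amido synthetase genes stood far above every N6 library. OsGH3-4 (Os05g0500900) went from 3.82 ± 2 to 47.7 ± 8.47 CPM (log2 change 3.65, adjusted p = 0.0011). OsGH3-1 (Os01g0785400) went from 1.09 ± 0.422 to 12.7 ± 5.38 CPM (log2 change 3.54, adjusted p = 0.0084), and its call was lost without N6 replicate 3 (adjusted p = 0.062). The other 5 members did not pass the test, and the median log2 change over the 9 was 0.30. OsJAR2 (Os01g0221100) measured 10.8 ± 1.56 and 9.92 ± 1.62 CPM (adjusted p = 0.89).

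Among SAUR genes, which act in cell elongation, 3 of 40 rose and 0 fell. OsSAUR46 (Os09g0546200) measured 0.831, 0.485 and 0.715 CPM on N6 and 11.4, 13.5 and 9.58 CPM on CIM (log2 change 4.08, adjusted p = 2e-05). OsSAUR22 (Os04g0662200) went from 4.85 ± 0.846 to 10.8 ± 2.36 CPM (log2 change 1.16, adjusted p = 0.004). OsSAUR55 (Os09g0547100), close to OsSAUR46 on chromosome 9, went from 0.298 ± 0.144 to 4.05 ± 0.473 CPM (adjusted p = 0.016) and lost its call without N6 replicate 1 (0.072) or 2 (0.088). How reads shared by such related neighbours were assigned is not given in the sources used here.

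LBD genes include the crown root regulator CROWN ROOTLESS1, a direct ARF target in rice. Of 20 LBD members tested 5 rose and 0 fell, with log2 changes of 2.83 to 5.19 for those called. The gene the study names OsCRL1 (Os03g0149000, chr3:2723037-2723835) measured 1.18, 1.06 and 1.76 CPM on N6 and 13.7, 7.84 and 13.2 CPM on CIM (log2 change 3.12, SE 0.24, adjusted p = 2.3e-07). Its neighbour Os03g0149100, which carries the symbol CRL1 in the deposited table, measured 0.0639, 0 and 0.325 CPM on N6 and 4.69, 4.98 and 4.54 CPM on CIM (adjusted p = 0.00013). Both neighbours were therefore higher in every CIM library. Os08g0563400, described as similar to LOB domain protein 17, went from 2.14 ± 0.576 to 15.3 ± 2.62 CPM (log2 change 2.83, adjusted p = 1.6e-06). OsDH1 (Os02g0820500) was at 0.176, 0.0606 and 0 CPM on N6 and at 3.32, 1.44 and 2.3 CPM on CIM, a ratio of 28.1 with a counting interval of 10.7 to 105. OsCrll2 (Os10g0162600) went from 0.308 ± 0.326 to 2.52 ± 0.754 CPM (adjusted p = 0.02) and lost its call without N6 replicate 2 (0.092) or CIM replicate 1 (0.084).

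Of 26 ARF genes, which encode the transcription factors that Aux/IAA proteins restrain, 3 rose and 0 fell. OsARF1 (Os11g0523800), described as auxin response factor 23, was one of them at 150 ± 23.5 CPM on N6 and 313 ± 36.4 CPM on CIM (log2 change 1.06, adjusted p = 0.00078). It sat at the fold minimum and fell under it without N6 replicate 3 (log2 change 1.00) or CIM replicate 1 (0.99). OsARF10 (Os04g0519700) went from 15.1 ± 2.13 to 31.6 ± 1.18 CPM (adjusted p = 0.016), a call lost without N6 replicate 1 (0.078), N6 replicate 2 (0.08) or CIM replicate 1 (0.066). ARF16 (Os06g0196700) measured 17.1 ± 1.41 and 25.8 ± 2.86 CPM (adjusted p = 0.28).

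The lists of auxin transport and synthesis genes were short, with 20 and 9 members tested, and held few calls. The share called higher was 5% for transport genes, from 1 gene, against 1.22% over all genes tested. Counts this small do not set either list apart. Of 20 transport genes 1 rose and 0 fell: the efflux carrier gene PIN1A (Os02g0743400) measured 18.1, 15.6 and 16.7 CPM on N6 and 47.8, 39.2 and 60 CPM on CIM (log2 change 1.54, adjusted p = 0.014). Its call was lost when any 1 of the N6 libraries (adjusted p = 0.05 to 0.07) or CIM replicate 3 (0.058) was left out. The study's OsPIN1a is another locus, Os06g0232300, which carries the symbol PIN1C in the deposited table and was not called in the line. PIN10A (Os01g0643300), another efflux carrier gene, measured 15.1, 21.9 and 18.7 CPM on N6 and 43.5, 32.2 and 23.2 CPM on CIM, which did not pass the test (log2 change 0.83, adjusted p = 0.12). Of 9 synthesis genes 0 rose or fell in edgeR, with 2 at an unadjusted p under 0.05, a count that here and for other lists takes any fold, and 0 called by DESeq2. OsYUCCA9 (Os01g0273800), of the flavin monooxygenase family that makes auxin, measured 3.06 ± 0.807 and 5.55 ± 2.38 CPM (adjusted p = 0.27).

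Outside the auxin families, the genes with the largest rises had varied descriptions. OsSTA40 (Os01g0892800), described as similar to an ankyrin-kinase, measured 0.128, 0 and 0.179 CPM on N6 and 12.3, 12.4 and 13.2 CPM on CIM, a ratio of 121 (counting interval 51.3 to 373). 11N3 (Os11g0508600), the sugar transporter gene OsSWEET14, went from 0.336, 0.288 and 0.244 CPM on N6 to 14.3, 20 and 14 CPM on CIM (log2 change 5.79, adjusted p = 0.00015). OsACL5 (Os02g0237100), described as similar to spermine synthase, went from 0.53 ± 0.421 to 26.4 ± 5.25 CPM (log2 change 5.64, adjusted p = 0.00096). These 3 genes were close to silent on N6 and stood above 10 CPM in every CIM library. OsCCR10 (Os02g0811800), described as a cinnamoyl-CoA reductase, an enzyme of lignin synthesis, was the most abundant of the strong risers at 12.3, 46.1 and 17.3 CPM on N6 and 935, 1332 and 707 CPM on CIM (log2 change 5.29, SE 0.83, adjusted p = 0.00094). CP (Os08g0556900), a cysteine proteinase gene, went from 0.389 ± 0.351 to 11.4 ± 0.716 CPM (log2 change 4.87, adjusted p = 3.9e-05), and the uncharacterised Os06g0109100 from 3.03 ± 0.901 to 50.1 ± 4.97 CPM (log2 change 4.05, adjusted p = 3.3e-06). Os01g0342900, annotated as similar to an AMP-binding protein, went from 7.91 ± 1.4 to 135 ± 47.7 CPM (adjusted p = 0.041), and its call was lost whichever of the 6 libraries was left out (0.054 to 0.15).

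Wall genes rose in several families, at shares that differed, against 1.22% called higher over all genes tested. The shares were 10.3% for expansin and 14.3% for glycosyl hydrolase family 9 genes. They were lower for pectin enzyme (2.08%), cellulose synthase (3.23%), xyloglucan endotransglucosylase (4.55%) and germin-like genes (4.76%). Of 86 class III peroxidase genes, which encode secreted enzymes that cross-link or loosen walls, 10 rose and 0 fell, a share of 11.6%. prx78 (Os06g0306300) measured 6.74, 0.576 and 3.43 CPM on N6 and 77.4, 70.8 and 67.3 CPM on CIM (log2 change 4.33, adjusted p = 7.1e-05), prx60 (Os04g0688200) went from 0.139 ± 0.144 to 13 ± 6.35 CPM (log2 change 6.51, adjusted p = 1.1e-05), and prx4 (Os01g0270300) from 120 ± 3.79 to 339 ± 38.9 CPM (log2 change 1.49, adjusted p = 7.2e-05). PRX46 (Os03g0369000) went from 0.183 ± 0.187 to 12.5 ± 6.55 CPM (adjusted p = 0.0097), a call lost without N6 replicate 1 (0.057) or 2 (0.051). The peroxidases called higher were 5 without N6 replicate 2 and 7 to 11 without any other library, and up to 16 in the other settings tried. Of 39 expansin genes, whose proteins loosen walls, 4 rose and 0 fell. OsEXPB6 (Os10g0555600) was among them at 200, 190 and 206 CPM on N6 and 578, 814 and 545 CPM on CIM (log2 change 1.70, adjusted p = 1.6e-05). OsEXPB11 (Os02g0658800) went from 14.9 ± 3.99 to 52.1 ± 5.73 CPM (log2 change 1.81). Of 21 genes of glycosyl hydrolase family 9, the plant cellulases, 3 rose. OsGH9B15 (Os02g0123700) was at 0.144, 0 and 0 CPM on N6 and 9.11, 6.4 and 4.86 CPM on CIM, a ratio of 160 (counting interval 43.9 to 1330), and OsCel9A (Os01g0220100), at 0 in all N6 libraries, was at least 16.4-fold higher on CIM, against a floor of 12 counts in each N6 library. Among 48 pectin enzyme genes 1 rose, OsPGL32 (Os01g0623600), a glycoside hydrolase family 28 gene that measured 1.66, 0.682 and 1.3 CPM on N6 and 47.4, 35.4 and 30.2 CPM on CIM (log2 change 4.96, SE 0.33, adjusted p = 3.6e-08). OsCslA1 (Os02g0192500), a cellulose synthase-like gene, went from 39.3 ± 8.92 to 113 ± 14.3 CPM (adjusted p = 0.0011).

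Transcription factor families outside the auxin pathway responded unevenly. Of 79 NAC genes 10 rose and 1 fell (6 rose without N6 replicate 3 or CIM replicate 1). ONAC013 (Os02g0252200) was among those that rose and measured 0.543, 0.424 and 0.731 CPM on N6 and 18.2, 14.2 and 18.9 CPM on CIM (log2 change 4.92, adjusted p = 3.8e-06). OsNAC3 (Os07g0225300) went from 10.3 ± 1.16 to 42.5 ± 4.2 CPM (log2 change 2.04, adjusted p = 0.00059), and ONAC072 (Os09g0497900), at 0 in all N6 libraries, was at least 6.53-fold higher on CIM. Of 43 HD-Zip and KNOX homeobox genes 3 rose, and of 140 bHLH genes 6 rose and 2 fell. Oshox2 (Os06g0140700), of the HD-Zip kind, measured 11.4, 13.6 and 11.8 CPM on N6 and 52.5, 51.5 and 57.4 CPM on CIM (log2 change 2.13, adjusted p = 6.1e-08). OsbHLH158 (Os06g0653200) went from 1.65 ± 0.21 to 23.4 ± 5.46 CPM (log2 change 3.82) and OsbHLH157 (Os02g0178700) from 1.56 ± 0.588 to 18.1 ± 3.5 CPM (log2 change 3.54). Of 11 WOX genes, which encode stem cell and organ initiation factors, 2 rose: WOX11 (Os07g0684900), an activator of crown root emergence, measured 41.7, 40.3 and 31.6 CPM on N6 and 102, 102 and 94.2 CPM on CIM (log2 change 1.39, adjusted p = 7.5e-05). OsWOX10 (Os08g0242400) went from 0.257 ± 0.198 to 3.19 ± 2.58 CPM (adjusted p = 0.026), and the call was lost in 5 of 6 omissions, all but that of CIM replicate 2 (0.052 to 0.12). Of 128 MYB genes 1 rose and 5 fell.

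PLT genes encode AP2-domain factors of embryo and root stem cells, and none of the 11 tested was called in the line by edgeR, with 3 higher and 2 lower at an unadjusted p under 0.05 and 3 called higher by DESeq2. OsPLT7 (Os03g0770700) measured 0.911, 0.651 and 0.195 CPM on N6 and 3.3, 0.867 and 2.17 CPM on CIM, and the groups overlapped (adjusted p = 0.32). OsPLT2 (Os06g0657500) measured 4.38, 0.894 and 4.4 CPM on N6 and 8.18, 4.11 and 17.2 CPM on CIM (adjusted p = 0.39). OsPLT5 (Os01g0899800) was at 0 in all N6 libraries and at 1.67, 0 and 3.67 CPM on CIM (adjusted p = 0.12). The single CIM library at 0 shows how far the 3 CIM libraries differed for these genes. OsPLT1 (Os04g0653600), the most abundant, stood at 30.5 ± 3.36 CPM on N6 and 34.1 ± 4.67 CPM on CIM (adjusted p = 0.90).

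Genes of other hormones were called in small numbers, but the lists are short and their shares differed. The shares called higher were 12.5% for cytokinin, 13.3% for gibberellin and 16.7% for brassinosteroid genes, against 1.22% over all genes tested. For ethylene and jasmonate genes they were 4.35% and 2.38%. Of 32 cytokinin genes 4 rose, among them 2 cytokinin oxidase genes, whose enzymes degrade cytokinin, and LOGL5 (Os03g0857900), of a family of cytokinin-activating enzymes. Gn1a (Os01g0197700) measured 0.416, 0.742 and 0.845 CPM on N6 and 5.31, 3.5 and 3.4 CPM on CIM (log2 change 2.61, adjusted p = 0.0013), and LOGL5 went from 2.8 ± 0.462 to 9.36 ± 1.38 CPM (log2 change 1.74, adjusted p = 0.0028). CKX4 (Os01g0940000) went from 0.906 ± 0.526 to 6.71 ± 3.99 CPM (adjusted p = 0.012), a call lost without N6 replicate 1 (0.071), N6 replicate 2 (0.057) or CIM replicate 1 (0.085). Of 15 gibberellin genes 2 rose, both coding for dioxygenases. OsGA2ox8 (Os05g0560900), which is described as a gibberellin 2-oxidase, an enzyme that inactivates gibberellin, was at 0, 0.121 and 0.114 CPM on N6 and 5.38, 5.17 and 3.56 CPM on CIM, a ratio of 55.4 (counting interval 21.3 to 205). SLR1 (Os03g0707600), the rice DELLA repressor of gibberellin signalling, measured 292 ± 8.29 and 212 ± 5.51 CPM (log2 change -0.46, adjusted p = 0.025) and stayed inside the fold minimum. Of 12 brassinosteroid genes 2 rose: BU1 (Os06g0226500), a helix-loop-helix gene of brassinosteroid signalling, was at 0, 0 and 0.13 CPM on N6 and 8.78, 5.27 and 7.87 CPM on CIM (ratio 175, counting interval 48.1 to 1450). OsCYP734A6 (Os01g0388000), of a family that inactivates brassinosteroids, went from 1.48 ± 0.167 to 3.54 ± 0.171 CPM (adjusted p = 0.014) and lost its call without N6 replicate 2 (0.076) or 3 (0.067). Of 22 abscisic acid genes 0 were called by edgeR (3 higher and 2 lower at an unadjusted p under 0.05, and 1 higher by DESeq2), and of 42 jasmonate and 23 ethylene genes 1 each rose.

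Glutathione S-transferases conjugate xenobiotics and oxidised metabolites. Of 71 genes tested 2 rose and 0 fell. OsGSTF5 (Os01g0369700) measured 64.3, 75.7 and 86.1 CPM on N6 and 183, 183 and 161 CPM on CIM (log2 change 1.22, adjusted p = 0.00017), and OsGSTU8 (Os10g0529700) went from 0.697 ± 0.329 to 3.28 ± 0.33 CPM (log2 change 2.23, adjusted p = 0.0018). In WT OsGSTF5 stood at 109 CPM on both media, and the change in the line exceeded that in WT by 1.22 on the log2 scale (adjusted p = 0.016), a call lost without N6 replicate 1 of the line (0.062), CIM replicate 2 of the line (0.051) or CIM replicate 2 of WT (0.055).

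Calls among genes of cell division were few in the line at 2 d, as they were over all genes tested (1.22% higher and 0.37% lower). At such shares lists of this size hold few calls, so the counts do not set these lists apart. Of 46 core histone genes 0 were called by edgeR or DESeq2 (2 at an unadjusted p under 0.05), with a median log2 change of 0.37, and of 33 replication genes 0 were called by either tool (1 at an unadjusted p under 0.05), with a median of 0.39. A histone H4 gene (Os04g0583600) illustrates the spread, with 13.2, 9.88 and 13.4 CPM on N6 and 32.8, 13.4 and 33.5 CPM on CIM (adjusted p = 0.36). CIM replicate 2 was the low one here. Of 29 cyclin and CDK genes 1 rose, CycD5 (Os12g0588800), a D-type cyclin gene that measured 1.29, 1.71 and 2.67 CPM on N6 and 19.4, 25.7 and 21.8 CPM on CIM (log2 change 3.56, SE 0.39, adjusted p = 1.6e-05). CDKB (Os01g0897000), for a mitotic kinase, went from 22.1 ± 2.36 to 42.2 ± 6.55 CPM (log2 change 0.94, adjusted p = 0.026), just inside the fold minimum, and it was called without CIM replicate 2 (1.06). Of 173 ribosomal protein genes 0 were called by edgeR (6 higher and 3 lower at an unadjusted p under 0.05) and 1 by DESeq2.

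**Figure D2:**
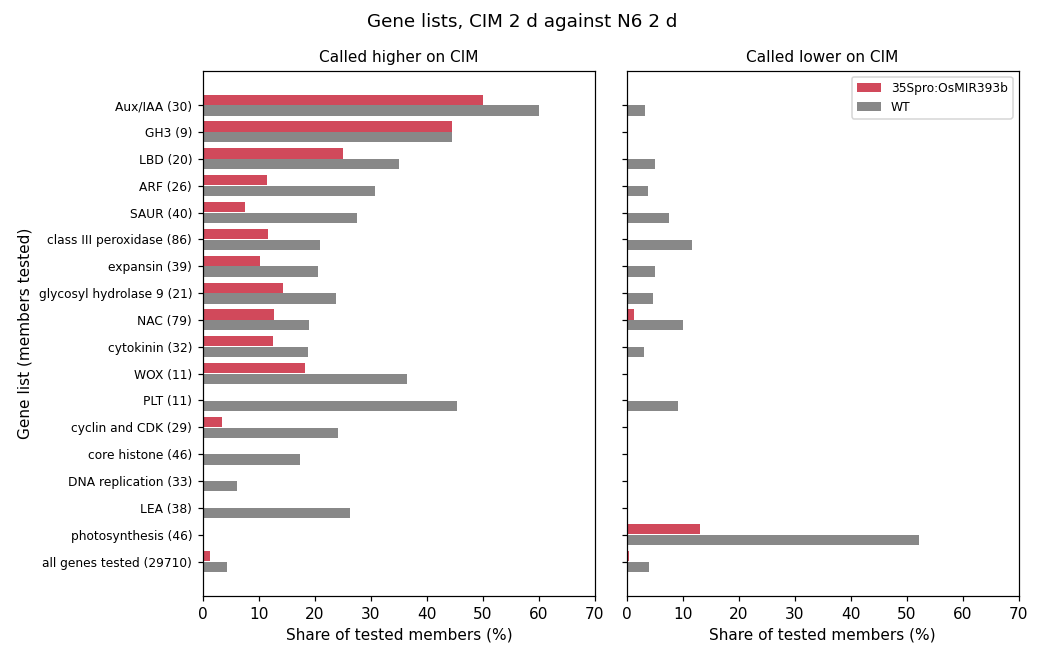
Percent of tested members of each gene list called higher (left panel) and lower (right panel) on CIM than on N6 at 2 d, in 35Spro:OsMIR393b and in WT. Of the 30 Aux/IAA genes 15 were called higher in the line and 18 in WT, and of the 46 photosynthesis genes 6 were called lower in the line and 24 in WT.

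The genes that fell in the line included a group of chloroplast genes. Of 46 photosynthesis genes tested 6 fell and 0 rose, with a median log2 change of -1.91 over the 46, and 30 were lower at an unadjusted p under 0.05. The list holds light-harvesting, photosystem and Rubisco subunit genes, and 2 further chloroplast genes that fell, OsRcaII and Fd1, lie outside it. OsRcaII (Os11g0707000), for the activase of Rubisco, measured 47.3, 45.5 and 43.9 CPM on N6 and 2.27, 7.92 and 3.7 CPM on CIM (log2 change -3.30, SE 0.53, adjusted p = 0.0013). Fd1 (Os08g0104600), for ferredoxin, measured 53.6, 44.9 and 48.4 CPM on N6 and 4.81, 13.4 and 10.2 CPM on CIM (log2 change -2.37, adjusted p = 0.004), and PsaG (Os09g0481200), for a photosystem I subunit, went from 13.5 ± 3.69 to 2.73 ± 1.29 CPM (log2 change -2.30, adjusted p = 0.004). In all 3 genes CIM replicate 1 was the lowest library, and all 3 kept their calls whichever library was left out. PSBW (Os01g0773700), for a photosystem II subunit, went from 22.5 ± 3.71 to 5.87 ± 3.04 CPM (adjusted p = 0.014) and lost its call without N6 replicate 1 (0.055), CIM replicate 1 (0.094) or CIM replicate 3 (0.067). RBCS (Os12g0274700), for the small subunit of Rubisco, had means of 7.17 CPM on N6 and 1.87 CPM on CIM (adjusted p = 0.046). The calls of antenna genes were less stable. CP24 (Os04g0457000) went from 38.4 ± 9.56 to 12 ± 2.68 CPM (adjusted p = 0.029) and was called only when the omitted library was N6 replicate 2 (0.057 to 0.16 otherwise), while LHCB (Os03g0592500, 32.3 ± 6.53 to 5.26 ± 2.67 CPM, adjusted p = 0.036) and CAB2R (Os01g0600900, 15.3 ± 6.62 to 1.12 ± 0.799 CPM, adjusted p = 0.035) lost their calls whichever library was left out (0.056 to 0.19 and 0.05 to 0.17). The photosynthesis genes called lower were 1 to 3 with any 1 library left out and up to 29 in the other settings. The count of 29 was reached with unadjusted p and the fold minimum kept, and also with adjusted p. It was 5 with library totals, 20 with counts divided by 4 and 28 when only the groups compared were fitted.

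Markers of other tissues differed between the media as well. The summed level of the 46 photosynthesis genes was 786 to 1088 CPM on N6 and 288 to 491 CPM on CIM in the line, against 268 to 356 and 116 to 143 CPM in WT. The root markers RCc2 and RCc3 together stood at 44.2 to 90.8 CPM on N6 and 201 to 270 CPM on CIM in the line, and at 95.8 to 206 and 515 to 759 CPM in WT. The green sum was lower and the root sum higher in every CIM library than in every N6 library of its genotype, and neither root marker was at 0 in any of them. Of the 4 RCc genes tested 1 was called in the line, and the weakest, OsHyPRP09 (Os10g0349300), went the other way without passing the test, with 1.29, 0 and 0.0488 CPM on N6 and 0.0654, 0 and 0 CPM on CIM (adjusted p = 0.30). RCc3 (Os02g0662000) alone measured 31.1, 9.78 and 29.6 CPM on N6 and 98.4, 149 and 121 CPM on CIM (log2 change 2.38, adjusted p = 0.022), a call lost when any 1 of the N6 libraries (0.051 to 0.10) or CIM replicate 2 (0.063) was left out. Scutellum and embryo markers were present in every library: the 38 late embryogenesis abundant (LEA) genes summed to 3457 to 4480 CPM on N6 and 2933 to 3091 CPM on CIM in the line, OsVP1 (Os01g0911700) stood at 41 ± 12 and 38.3 ± 4.16 CPM, and the 6 oleosin genes summed to 22.9 to 51 and 26.3 to 78 CPM. The 38 storage protein genes summed to 683 to 802 CPM on N6 and 468 to 587 CPM on CIM. The part of such tissue shares in the changes was not tested, and in bulk RNA fewer cells of a type and less RNA per cell cannot be told apart.

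**Figure D3:**
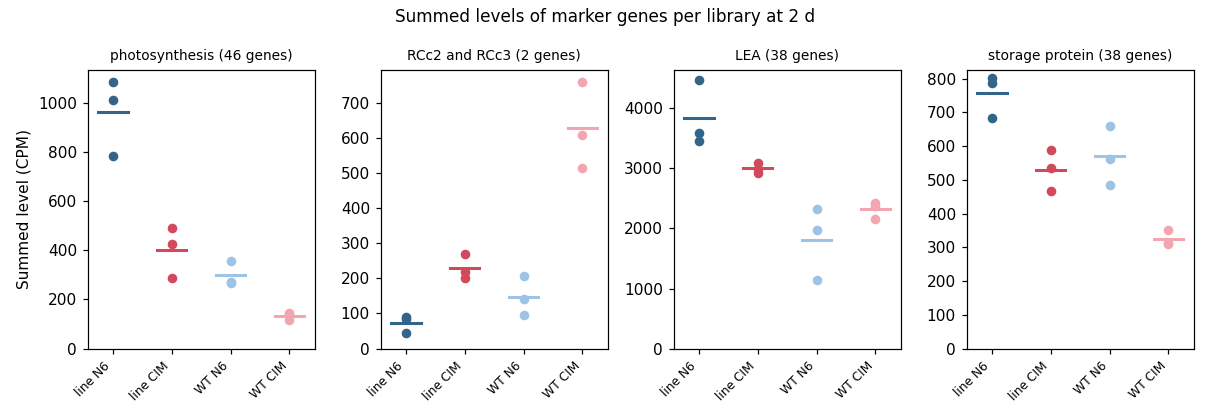
Summed level in CPM of photosynthesis genes, of the root markers RCc2 and RCc3, of LEA genes and of storage protein genes in each library of the 4 groups at 2 d, with 1 point per library and a bar at the group mean. In the line the photosynthesis sum was 786 to 1088 CPM on N6 and 288 to 491 CPM on CIM, without overlap.

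Outside photosynthesis the genes that fell had varied descriptions. OsPSK2 (Os11g0149400), for the precursor of the peptide phytosulfokine, measured 13, 8.01 and 9.21 CPM on N6 and 2.57, 1.54 and 3 CPM on CIM (log2 change -2.08, adjusted p = 0.0033). Os03g0134500, a cytochrome P450 gene described as CYP78A9, measured 8.95, 9.77 and 16.7 CPM on N6 and 2.81, 2.67 and 2.97 CPM on CIM (log2 change -2.07, SE 0.27, adjusted p = 1e-04). Os02g0720600, a peptidase A1 gene, went from 33.4 ± 13.4 to 7.34 ± 1.62 CPM (log2 change -2.18, adjusted p = 0.0053). These 3 genes kept their calls whichever of the 6 libraries was left out. OsCGT (Os06g0288300), for the C-glucosyltransferase of flavone C-glycosides, measured 22, 22.2 and 22.9 CPM on N6 and 6.07, 2.15 and 2.08 CPM on CIM (log2 change -2.70, adjusted p = 0.014), a call lost without CIM replicate 2 or 3 (0.071 each). OsBURP07 (Os05g0217700), a BURP domain gene, measured 30.7, 29.2 and 42.6 CPM on N6 and 0.703, 5.11 and 1.72 CPM on CIM (adjusted p = 0.035), and of the 6 omissions only that of CIM replicate 2 kept its call (0.079 to 0.14 for the others).

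Set beside WT, the line changed fewer genes. In WT 1277 genes were higher (4.3%) and 1191 lower (4.01%) on CIM at 2 d, together 8.31%. Of the 361 genes higher in the line 270 were also higher in WT, which is 74.8% of the line's list and 21.1% of the WT list. Of the 110 lower genes 66 were also lower in WT, 60.0% and 5.54% of the lists, and 0 genes were called in opposite directions. The genes called higher in the line had a median log2 change of 2.28 in the line and 2.21 in WT, whereas those called higher in WT had a median of 0.89 in the line and 2.18 in WT. In the lower direction the medians were -1.64 and -1.43 for genes called in the line, and -0.59 and -1.71 for those called in WT. A list's median is raised by its own choice in the genotype that defined it, so these medians describe the lists and carry no test. Over 23198 genes with at least 1 CPM the changes of the 2 genotypes, which share no library, had a Pearson correlation of 0.60 (Spearman 0.55) and SDs of 0.81 in the line and 1.14 in WT, and genes are not independent replicates.

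**Figure D4:**
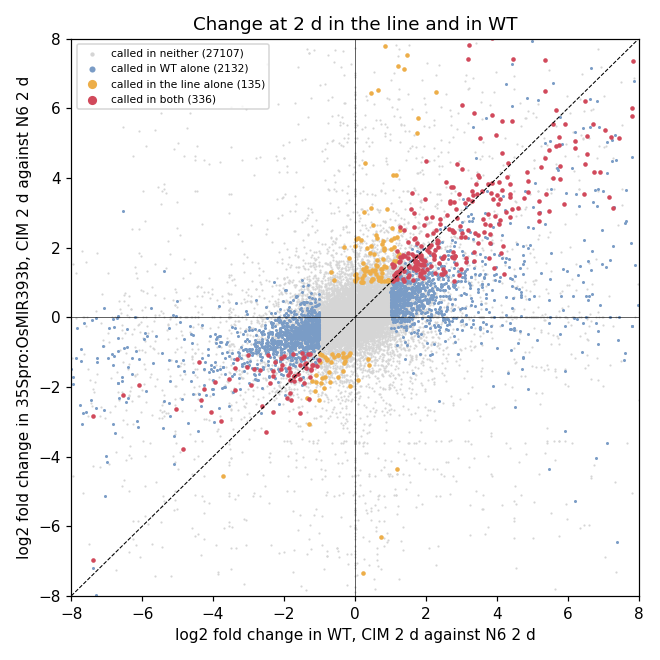
Log2 change from N6 to CIM at 2 d in WT (horizontal axis) and in 35Spro:OsMIR393b (vertical axis) for the 29710 genes tested, coloured by the genotype in which a gene was called. Of these, 336 were called in both, 135 in the line alone and 2132 in WT alone, and 172 lie beyond the axes at 8.

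The difference between the genotypes was tested as an interaction. The change was more positive in the line for 84 genes (0.283%) and more negative for 75 genes (0.252%). Of the 84, 58 fell in WT and were not called in the line, 9 rose in the line and were not called in WT, and 9 fell in both. Of the 75, 52 rose in WT and were not called in the line, and 14 rose in both. Without CIM replicate 1 of WT the counts were 156 and 139. The lowest counts were 19, without N6 replicate 1 of the line, and 42, without CIM replicate 2 of the line, and the omissions that moved 1 of the counts by more than 1.5 times further included N6 replicates 2 and 3 and CIM replicates 2 and 3 of WT, N6 replicate 2 of the line and CIM replicate 1 of the line (31 to 55).

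Among the auxin families differences were called for a minority of members, against 0.283% more positive and 0.252% more negative over all genes tested. For the 30 Aux/IAA genes 0 were more positive and 2 more negative in the line, and the 15 members that rose in the line all rose in WT too. At an unadjusted p under 0.05 in edgeR, 2 Aux/IAA differences were more positive and 7 more negative, and DESeq2 called 4, all more negative. OsIAA10 reached 69.7 ± 12.3 CPM on CIM in WT and 26.8 ± 3.38 CPM in the line, with nearly equal N6 levels of 6.24 ± 0.542 and 5.2 ± 0.862 CPM, and its change was smaller in the line by 1.11 on the log2 scale (log2 difference -1.11, adjusted p = 0.011). That difference dropped under the fold minimum without CIM replicate 3 of WT (-0.98) or N6 replicate 2 of the line (-0.97). GH3-2 differed in the opposite sense: it measured 113, 183 and 172 CPM on N6 in WT, above all 3 N6 libraries of the line, and 2893, 2034 and 1861 CPM on CIM. The level on CIM was close in both genotypes (log2 difference 0.02, adjusted p = 0.97), the level on N6 was lower in the line (-1.93, adjusted p = 6.6e-05), and the change was larger in the line by 1.96 (adjusted p = 0.0062). PIN10A measured 12.9, 11.8 and 10.6 CPM on N6 and 105, 136 and 154 CPM on CIM in WT, and its change was smaller in the line (log2 difference -2.65, SE 0.38, adjusted p = 0.0028). For the 40 SAUR genes 2 differences were called, both more negative in the line. At an unadjusted p under 0.05 in edgeR 5 SAUR differences were more positive and 4 more negative. For the 20 LBD, 26 ARF and 11 PLT genes 0 were called by edgeR and 2, 2 and 0 by DESeq2. At an unadjusted p under 0.05 in edgeR 3, 5 and 3 were more negative, and 1 in each list was more positive. OsPLT7, at 42.4 ± 13.1 CPM on CIM in WT and 2.11 ± 1.22 CPM in the line, differed between the genotypes on CIM (log2 difference -4.32, adjusted p = 0.0023), but the difference in its change did not pass the test (-3.69, adjusted p = 0.17). Of the 30 genes that the study names by identifier 5 rose in the line and 15 in WT, and 0 differences were called (8 more negative at an unadjusted p under 0.05, and 3 by DESeq2). Many of those genes were chosen by the study on these samples, and these are no independent evidence. OsTIR1, OsAFB2, OsIAA11 and OsCRL1 came to the study from earlier work.

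Outside the auxin families the named genes with the most negative differences rose in WT and were not called in the line, or rose less. OsUMAMIT5 (Os01g0297700), of a family of amino acid transporters, measured 5.85, 1.98 and 4.27 CPM on N6 and 5.1, 4.92 and 5.48 CPM on CIM in the line, and rose in WT from 0.116, 0.279 and 0 to 9.91, 24.5 and 13.9 CPM (log2 difference -6.56, adjusted p = 0.00042). The peroxidase gene prx91 (Os06g0695400) went from 1.45 ± 0.297 to 3.34 ± 1.17 CPM in the line, which was not called, and from 0.382 ± 0.221 to 30.2 ± 12.4 CPM in WT (log2 difference -5.10, adjusted p = 0.00019). Both genes were higher in the line than in WT on N6 (adjusted p = 6.6e-05 and 0.0054). OsSTA246 (Os10g0465700), described as a beta-amylase, rose in both genotypes, to 12 ± 2.46 CPM in the line and 66.2 ± 21.5 CPM in WT, with a smaller change in the line (-3.71, adjusted p = 0.0023). On the positive side OsPIP2 (Os07g0448100), for a water channel of the plasma membrane, measured 460, 547 and 600 CPM on N6 and 317, 440 and 352 CPM on CIM in the line and fell in WT from 598, 595 and 579 to 80.5, 41.3 and 57.7 CPM (log2 difference 2.77, SE 0.33, adjusted p = 0.00086). Os03g0231600, described as a branched-chain amino acid aminotransferase, went from 54.5 ± 4.8 to 22.3 ± 3.01 CPM in the line and from 48.3 ± 11.2 to 2.27 ± 0.824 CPM in WT (log2 difference 3.11, adjusted p = 0.0022). Its own fall in the line (adjusted p = 0.024) lost the call whichever line library was left out (0.05 to 0.13), while the difference kept it.

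Starting levels differed too. On N6, without hormone, 531 genes were higher (1.79%) and 351 lower (1.18%) in the line than in WT, and on CIM 1165 were higher (3.92%) and 810 lower (2.73%), together 6.65%. Of the 361 genes that rose on CIM in the line 78 were lower and 1 was higher than in WT on N6 (median log2 difference -0.80), and on CIM 114 were lower and 7 higher (-0.87). Of the 110 genes that fell, 39 were higher and 1 lower on N6 (1.01), and 44 were higher and 8 lower on CIM (0.77). The line's own N6 libraries enter both the choice of these genes and the comparison, so the counts are a description. Of the 46 photosynthesis genes 28 were higher in the line than in WT on N6 and 0 lower, with a median log2 difference of 2.80 on N6 and 3.69 on CIM.

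The later CIM libraries of the line share its N6 libraries with the 2 d comparison, and time and medium change together in them, so their values are given side by side. Against N6, 1887 genes were higher (6.35%) and 1251 lower (4.21%) at 5 d, and 2972 were higher (10%) and 3705 lower (12.5%) at 7 d. The 361 genes higher at 2 d had median log2 changes of 2.28 at 2 d, 2.05 at 5 d and 1.35 at 7 d, and the 110 lower genes -1.64, -0.86 and -0.91. GH3-2 stood at 2301 ± 189 CPM at 2 d, 1582 ± 163 at 5 d and 1588 ± 196 at 7 d. OsIAA9 measured 44.5 ± 4.61, 17.2 ± 5.52 and 11.1 ± 1.15 CPM, while OsIAA10 measured 26.8 ± 3.38, 57.6 ± 7.72 and 56.8 ± 5.07 CPM. The 2 repressor genes thus had their highest level at different times. WOX11 was at 99.4 ± 4.53 CPM at 2 d and was not called at 5 d (28.5 CPM) or 7 d (26.1 CPM), below its N6 level of 37.8 ± 5.47 CPM. 11N3 stood at 16.1 ± 3.37 CPM at 2 d, 86.8 at 5 d and 50.9 at 7 d. PIN10A stayed at 34.6 ± 17.1 and 25.1 ± 0.631 CPM and was not called at either time, and OsPLT7 was called at 5 d (7.82 ± 7.82 CPM, log2 change 3.74, adjusted p = 0.0045) but not at 7 d. The SD of OsPLT7 at 5 d was as large as its mean. Fd1 was called lower at 5 d (16.8 ± 5.06 CPM) and 7 d (15.4 ± 2.83 CPM), above its level of 9.48 ± 4.36 CPM at 2 d.

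**Figure D5:**
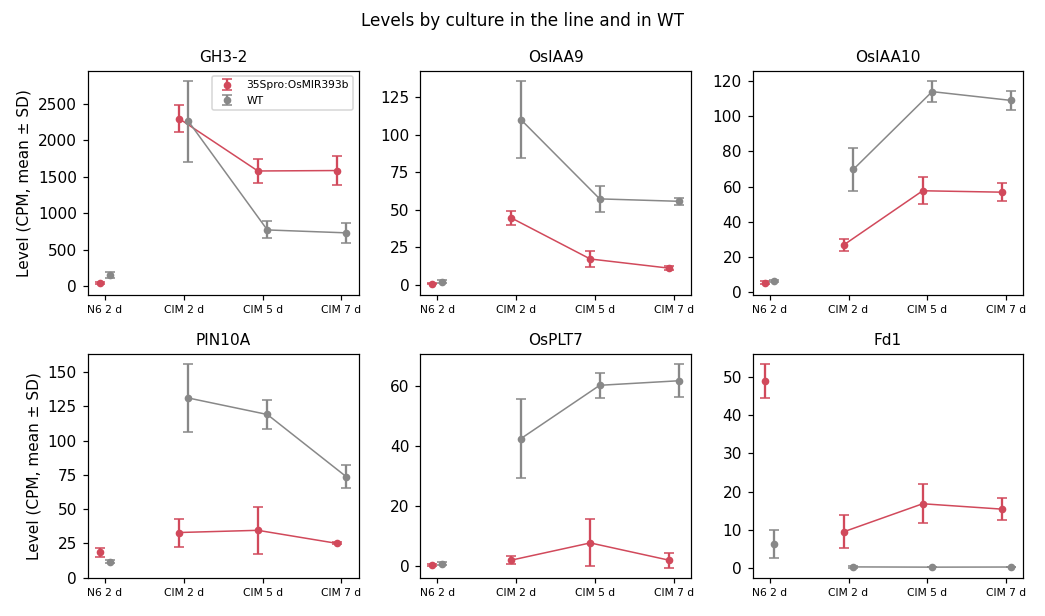
Mean level in CPM, with the SD of 3 libraries as error bars, of GH3-2, OsIAA9, OsIAA10, PIN10A, OsPLT7 and Fd1 on N6 at 2 d and on CIM at 2, 5 and 7 d in 35Spro:OsMIR393b and WT. PIN10A reached 131 CPM at 2 d in WT and 33 CPM in the line.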

How the data were processed

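Per the labels, polyA RNA of 24 samples was made into libraries with the TruSeq RNA kit, which does not mark the strand, so that overlapping and antisense genes cannot be told apart. The submitters' processing notes name Trimmomatic 0.36, HISAT2 2.1.0, StringTie 1.3.4d and the build IRGSP-1.0. The methods also name UMI-tools, and whether it shaped the counts, and how reads that fit several genes were assigned, is not given in the sources used here. The authors deposited 1 table with an estimated count, not normalized between libraries, and an FPKM value for each of 38866 genes in each library. Counts of weakly expressed genes came in steps of about 4, taken as 1 fragment, and 12 counts per library served as the floor for folds against a group at 0.

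The estimated counts were rounded, filterByExpr left 29710 genes, and 1 fit of all 24 libraries in 8 groups of 3 with TMM factors gave the quasi-likelihood F-test of edgeR 4.0.16 (R 4.3.3), with Benjamini-Hochberg adjustment over all genes tested. An interaction contrast tested the difference between the genotypes. An SE is the size of the log2 change divided by the root of F. Counting intervals of ratios are exact, at 95%, on fragments, and cover counting error only. The rule for named genes took the 15 highest and 15 lowest called genes without overlap and with at least 10 CPM in the higher group, up to 5 members of each list by smallest p, the genes the study names by identifier, and the 10 most positive and 10 most negative called differences with at least 10 CPM in a group, 280 genes in all. Which of these are described singly was decided after their values were seen, others enter only through the counts, and 1 is not reported here. RBCS, OsGSTF5 in its comparison with WT and the genes followed to 5 d and 7 d were picked after their values were seen. The lists were built by matching terms in gene symbols and descriptions. The members, genes and lists were chosen with earlier results of these data known.

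Alternatives were DESeq2 1.42.0, RLE factors or library totals for scaling, testing without the filter, fitting the compared groups alone with or without a block for the replicate number, p without adjustment, calling without a fold minimum, counts divided by 4, limma 3.58.1 on log2(FPKM + 0.1) and log2(FPKM + 1) for genes with a group mean of at least 0.5, and omission of each library. Scripts were tested on simulated data with known changes, and no sequence was analysed here.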

Additional observations from a re-analysis of the deposited data

Results flagged for a closer look

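For 25 of the genes named, the change from N6 to CIM at 2 d differed between 35Spro:OsMIR393b and WT by the interaction test of edgeR (adjusted p under 0.05 and an absolute log2 difference above 1, line minus WT). The change was more positive in the line for GH3-2 (1.96), OsGSTF5 (1.22), the P450 gene Os03g0134500 (2.19), OsPIP2 (2.77), Os03g0231600 (3.11), OsBURP02 (Os05g0217800, 4.74), Os11g0450400, described as a sulfotransferase (4.30), and Os07g0562700, a chlorophyll a/b-binding protein gene (3.38). It was also more positive for Os04g0227500 (3.26), Os10g0150800 (3.17), the transferase gene OsAT4 (Os01g0291500, 2.62), the potassium channel gene OsAKT2 (Os05g0428700, 2.50) and the sulphate transporter gene OsSultr3 (Os03g0161200, 2.23).

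The change was more negative in the line for OsUMAMIT5 (-6.56), Os06g0549300, described as a reticuline oxidase (-6.02), the germin-like gene GLP8-3 (Os08g0189200, -5.38), CP (-5.16), prx91 (-5.10), Os10g0386300 (-4.08), Os11g0659200 (-3.80) and OsSTA246 (-3.71). It was also more negative for the subtilase gene OsSub38 (Os04g0127300, -3.23), the transporter gene OsABCB7 (Os01g0723800, -3.18), PIN10A (-2.65) and OsIAA10 (-1.11). Of the 25 calls 11 were kept whichever of the 12 libraries was left out, and 6 were kept in every other setting tried. CP lost the call without N6 replicate 3 of the line (adjusted p = 0.051) and OsSub38 without CIM replicate 2 of the line (0.052).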

How the results depend on the processing

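Each of the 4 counts of calls moved by over 1.5 times in several settings. The 361 genes higher in the line became 1121 with unadjusted p and the same fold minimum, 567 when only the groups compared were fitted, 673 with DESeq2 and 217 to 300 with 1 library left out. The 110 lower genes became 665 with unadjusted p, 236 with no minimum fold, 177 with counts divided by 4, 270 with only the groups compared, 284 with DESeq2, 252 and 197 with limma on log2(FPKM + 0.1) and log2(FPKM + 1), and 32 to 73 with 1 library left out. The 84 more positive differences became 972 with unadjusted p, 151 with counts divided by 4, 185 with only the groups compared, 351 with DESeq2, 143 and 207 with limma, and 19 to 156 with 1 library left out. The 75 more negative differences became 816 with unadjusted p, 288 with DESeq2, 133 and 186 with limma, and 42 to 139 with 1 library left out. Whether same-numbered libraries were paired is not given in the sources used here. Deviations of same-numbered libraries of the line correlated at 0.0358, 0.024 and 0.0263. Within the line each library correlated best with its own number on the other medium. In WT at 2 d same-numbered libraries correlated at -0.057, -0.0357 and -0.0357, lower than those with different numbers, so the genotypes differed in this. With the number as a replicate block in the fit of the groups compared, the counts were 494 higher and 182 lower in the line, and 24 more positive and 15 more negative differences. Of 78 genes called in the line and followed through all settings, 53 kept the call whichever library was left out and 68 kept it in every other setting. The cause of these shifts was not tested.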

Other observations

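Counts of calls in some further gene groups were as follows. Of 38 LEA genes, which encode protective proteins of late seed development, 0 were called in the line at 2 d by edgeR (2 higher and 1 lower at an unadjusted p under 0.05, and 1 higher by DESeq2), against 10 called higher in WT, and the interaction test called 1 difference, more negative in the line (10 at an unadjusted p under 0.05, 6 by DESeq2). Rab16A (Os11g0454300), a LEA gene described as a water-stress inducible protein, measured 99.8, 110 and 49.2 CPM on N6 and 242, 206 and 162 CPM on CIM in the line, which did not pass the test (log2 change 1.23, edgeR adjusted p = 0.12). In WT it measured 12.8, 8.47 and 5.13 CPM on N6 and 81.2, 110 and 143 CPM on CIM (log2 change 3.66, adjusted p = 1.7e-05), and the difference in its change did not pass the test (-2.42, adjusted p = 0.057). The N6 libraries of the line were all above those of WT (log2 difference 3.29, adjusted p = 0.00021).

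Of 71 glutathione S-transferase genes 1 was called higher and 13 lower in WT, where the line had 2 higher and 0 lower, and 6 differences were called, all more positive in the line. Of 173 ribosomal protein genes 1 was called higher in WT and 0 in the line, with 130 and 6 higher at an unadjusted p under 0.05, median log2 changes of 0.40 and 0.10, and 0 differences called by edgeR or DESeq2 (35 more negative at an unadjusted p under 0.05). The 11 alpha-amylase genes, whose enzymes break down starch, summed to 19416 to 22578 CPM on N6 and 16294 to 28205 CPM on CIM in the line, and to 7177 to 8906 and 4167 to 15971 CPM in WT. The sums of the line were above those of WT in every library, and 0 members were called by edgeR between the media in the line (1 lower at an unadjusted p under 0.05, and 0 by DESeq2).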
